A study of Mus musculus with 1248 samples.

Results

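The 34 genes described here are those of glycolysis and of the hypoxia response, taken by symbol out of 40756 genes in a table of single-cell read counts. The symbols comprise 20 genes of glucose uptake, glycolysis and lactate export and 14 genes that respond to low oxygen, and all 34 were found in the table. The cells were 4T1 and 4T1.2, mouse mammary carcinoma lines of BALB/c origin that were labelled with firefly luciferase and the red fluorescent protein mCherry. In vivo cells came from female BALB/c mice, and the labels give neither the age of the mice nor the number of animals behind a group. Bone cells were recovered from the hindlimbs after injection into the heart. For 4T1 they were taken on day 4, the early seeding stage (513 wells), on day 10, during progression (96 wells), and on day 16, the late stage (192 wells). For 4T1.2 they were taken on day 4 (243 wells). Primary 4T1 tumours of the mammary fat pad were sampled on day 22 (96 wells), and cultured 4T1 (54 wells) and cultured 4T1.2 (54 wells) served as controls. Cells were sorted singly by mCherry into 96-well plates and amplified by Smart-seq2, which reads whole transcripts from oligo-dT primed RNA without molecular identifiers.

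Glycolysis splits glucose into pyruvate in the cytosol, and lactate dehydrogenase and the monocarboxylate transporters dispose of the product when it is not burned in mitochondria. Low oxygen stops the prolyl hydroxylases of the EGLN family from marking HIF-1 alpha and HIF-2 alpha for destruction. The stabilised factors bind DNA with ARNT at short elements around ACGTG or GCGTG and switch on glucose transporters, glycolytic enzymes, pyruvate dehydrogenase kinase, carbonic anhydrase IX and other targets. Many tumours use glucose heavily even where oxygen is present, and marrow has regions of low oxygen.

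Of 1248 wells, 1218 passed the filters on depth, genes and mitochondrial share. A well was counted as tumour where the keratins Krt8 and Krt18 together had a higher level in CPM (a gene's counts divided by the well's total and scaled to the usual per-million base) than the blood-cell genes Ptprc, Coro1a, Laptm5 and Rac2 together, and as host where they had less. This gave 501 tumour wells and 717 host wells. The tumour wells numbered 54 in 4T1 culture, 137 on day 4, 54 on day 10, 71 on day 16 and 85 in fat pad tumours, and for 4T1.2 there were 47 from bone and 53 from culture. The label of the sorted cells as tumour cells was therefore at odds with the markers of 359 of 496 wells on day 4, 41 of 95 on day 10, 119 of 190 on day 16, 10 of 95 in the fat pad and 188 of 235 of 4T1.2 in bone. Median depth of tumour wells lay between 2981083 and 3346557 counts over the groups. One tumour well of day 16 held 34104356 counts, 14.7% of that group's total, while the next deepest held 11568261. Some tumour wells carried blood-cell RNA. The 4 blood-cell genes summed to a median of 212 CPM in 4T1.2 tumour wells of bone, 46.8 CPM on day 4, 25.3 CPM on day 10, 43 CPM on day 16, 4.6 CPM in the fat pad and 0 CPM in both cultures. In 25 of the 47 tumour wells of 4T1.2 in bone, keratin and blood-cell sums were within 10-fold of each other, against 11 of 137 on day 4.

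No label names an animal, plate or culture for a well, so each group is 1 sample, wells are not replicates, and no difference below carries a test. The level of a gene in a group is the CPM of its counts summed over the group's wells. Counting intervals (exact Poisson, 95%) of tumour levels of 20 CPM or more extended no more than 3.67% upward and 3.58% downward, and they cover counting error only. Ratios are log2 of CPM plus 5 in the first-named group over the second. A gene was measured in a comparison when it had at least 5 CPM in either group, and it is called higher or lower when the ratio passed 2-fold. Fewer cells with a gene and less RNA per cell are told apart only by the values of the wells, which follow as lowest, median and highest.

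The DNA around the start sites of the members carried the core of the hypoxia element often. RefSeq windows from 250 bases before to 50 bases after a start (build GRCm38.p6) were at hand for 32 of the 34 genes, all but Ndrg1 and Slc2a3. ACGTG or GCGTG, searched on both strands with overlaps between the strands counted, was found in 36 of 47 member windows (76.6%), and in 43.8% of the 32851 windows of all genes. The share was 75% in hypoxia response genes and 77.4% in glycolysis genes. Both cores contain CG, the windows were not matched for base composition, and some windows of the same gene overlap. At least 3 matches stood in 27.7% of member windows and in 8.93% of all windows. The windows that follow are 5 of the 47 member windows, and those of Car9 and Slc16a3 had fewer than 3 matches. They are written in the direction of the gene, with every match in capitals (CACGT and CACGC are the same letters read on the other strand). They were chosen because Car9, Bnip3 and Aldoc had far higher levels on day 16 than on day 4, Ldha had the most matches of those shown and no such difference, and Slc16a3 was found mostly in host wells. A second window of Ldha had 2 matches and a second window of Aldoc had 1. A match is a description of the letters and no evidence of binding.
Car9, chr4:43506776-43507075, plus strand: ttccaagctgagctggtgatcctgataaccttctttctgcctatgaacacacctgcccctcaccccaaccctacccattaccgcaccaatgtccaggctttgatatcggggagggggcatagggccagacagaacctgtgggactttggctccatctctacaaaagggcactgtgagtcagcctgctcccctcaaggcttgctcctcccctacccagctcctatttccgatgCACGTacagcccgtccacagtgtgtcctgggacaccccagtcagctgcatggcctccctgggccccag
Bnip3, chr7:138909457-138909756, minus strand: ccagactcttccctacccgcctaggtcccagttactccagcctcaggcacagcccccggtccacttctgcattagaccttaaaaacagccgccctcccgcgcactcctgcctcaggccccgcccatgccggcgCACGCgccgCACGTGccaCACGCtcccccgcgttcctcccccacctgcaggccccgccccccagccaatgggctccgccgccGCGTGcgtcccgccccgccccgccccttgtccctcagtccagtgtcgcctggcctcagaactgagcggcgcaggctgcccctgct
Aldoc, chr11:78322823-78323122, plus strand: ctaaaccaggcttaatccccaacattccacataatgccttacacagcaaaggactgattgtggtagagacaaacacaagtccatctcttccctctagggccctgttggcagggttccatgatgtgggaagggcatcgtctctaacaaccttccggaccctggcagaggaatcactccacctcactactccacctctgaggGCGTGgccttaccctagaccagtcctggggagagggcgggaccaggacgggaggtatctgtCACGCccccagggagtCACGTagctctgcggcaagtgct
Ldha, chr7:46845554-46845853, plus strand: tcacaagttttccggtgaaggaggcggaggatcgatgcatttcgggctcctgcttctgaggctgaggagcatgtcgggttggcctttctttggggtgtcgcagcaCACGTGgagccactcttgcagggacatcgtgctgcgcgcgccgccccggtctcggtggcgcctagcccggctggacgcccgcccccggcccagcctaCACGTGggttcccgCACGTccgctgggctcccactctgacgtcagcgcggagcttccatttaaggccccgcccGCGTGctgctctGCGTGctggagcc
Slc16a3, chr11:120948817-120949116, plus strand: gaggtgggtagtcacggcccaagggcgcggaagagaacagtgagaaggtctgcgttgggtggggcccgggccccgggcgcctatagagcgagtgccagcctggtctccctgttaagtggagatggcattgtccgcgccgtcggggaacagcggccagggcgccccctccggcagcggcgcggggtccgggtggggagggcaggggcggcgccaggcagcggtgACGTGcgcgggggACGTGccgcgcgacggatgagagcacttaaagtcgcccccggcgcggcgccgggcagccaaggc

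The members did not share 1 pattern, as the map of ratios shows. The summed central glycolytic enzymes were lower in every group taken from mice than in the matching culture. The summed hypoxia response genes were below their culture level on day 4 and were highest on day 16 and in the fat pad, although single members, among them Higd1a, Car12 and Pdk1, had other orders. The lower day 4 sum of 4T1 was not shared by all members. Of 13 measured against culture, 0 were at least 2-fold higher and 2 lower, with a median ratio of -0.15, against -0.06 over all genes. Ndrg1 had 220 CPM in culture (163 CPM without 1 well) and 118 CPM on day 4, while Car9 and Egln3 were above culture. Summed over the 14 hypoxia response genes, the level was 673 CPM in 4T1 culture, 434 CPM on day 4, 853 CPM on day 10, 1429 CPM on day 16 and 1598 CPM in fat pad tumours. For the 4T1.2 line it came to 344 CPM in bone on day 4 and 759 CPM in culture. The sums over the 10 core enzymes (Gpi1, Pfkl, Aldoa, Tpi1, Gapdh, Pgk1, Pgam1, Eno1, Pkm and Ldha) were 1.65% of all counts in 4T1 culture, 1.07% on day 4, 1.14% on day 10, 1.14% on day 16 and 0.953% in fat pad tumours. For the 4T1.2 line they came to 1.16% in bone and 1.78% in culture.

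**Figure D1:**
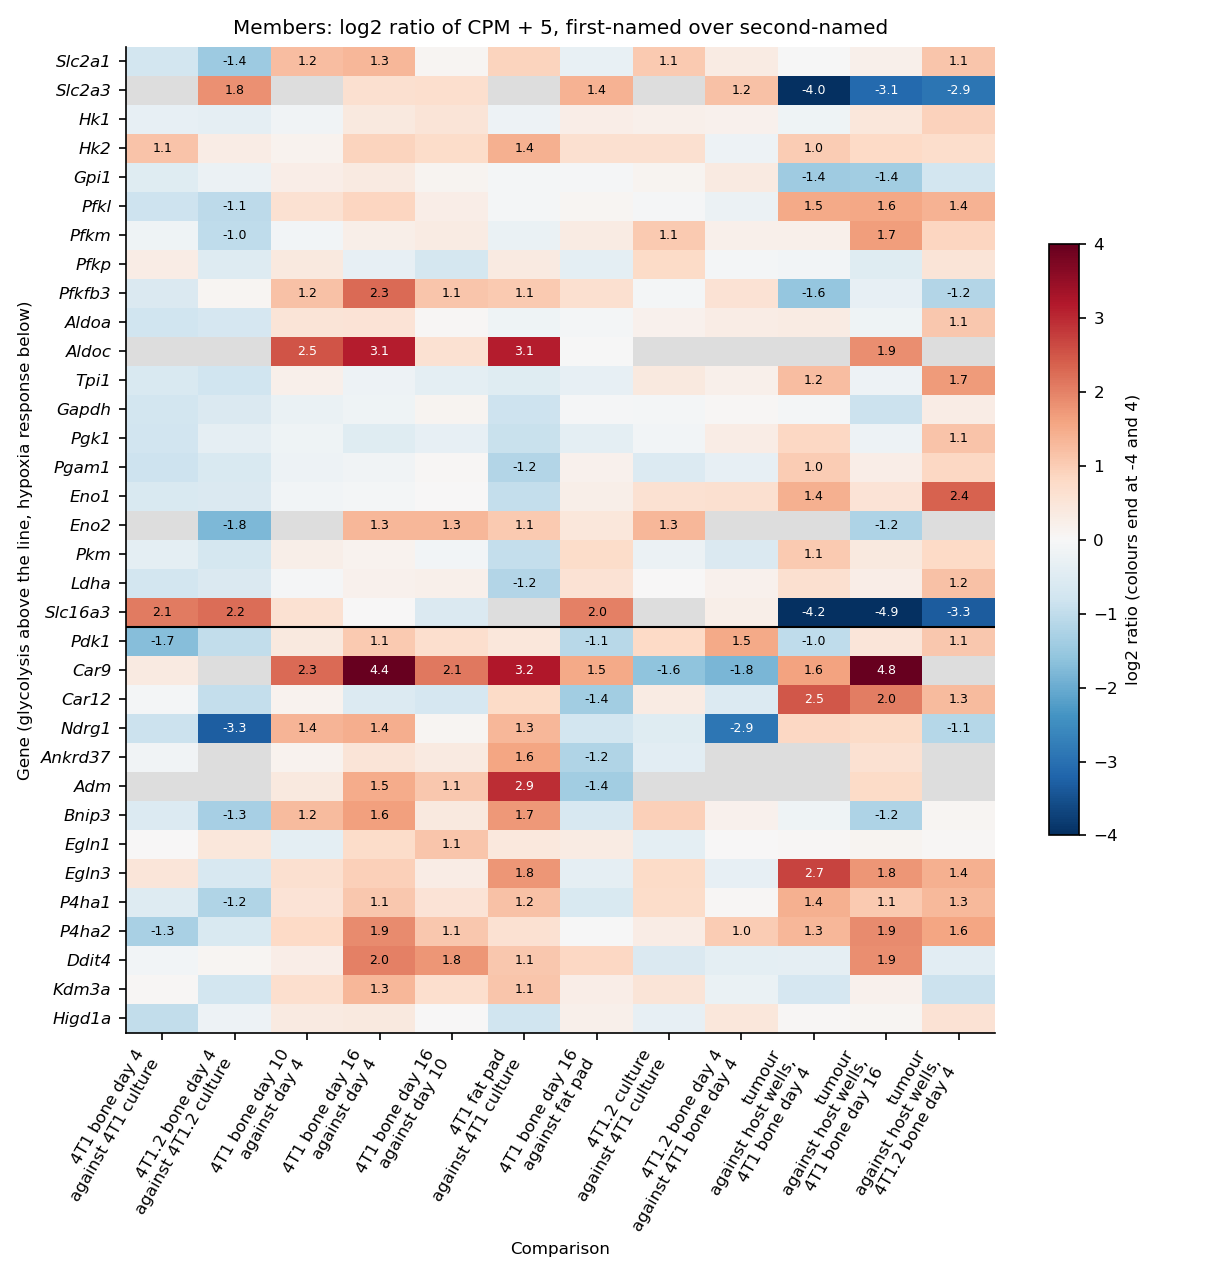
Log2 ratio of CPM plus 5 for the 34 genes (rows) in 12 comparisons (columns, first-named group over second-named). Numbers stand where the ratio passed 2-fold, and grey marks genes below 5 CPM in both groups. The day 16 against day 4 column, over all tumour wells, has 13 genes higher and 0 lower (15 and 1 without the deepest day 16 well), and Slc16a3 and Slc2a3 are lower in tumour than in host wells in all 3 columns at the right.

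On day 4 in bone, 2 of 30 measured members were at least 2-fold higher than in 4T1 culture and 2 were lower, while 8.77% of all 10234 measured genes passed 2-fold, 5.18% higher and 3.60% lower. The median ratio of the members was -0.53, against -0.06 over all genes. Hk2 and Slc16a3 were the higher genes, and Pdk1 and P4ha2 the lower. When only tumour wells with less than 100 CPM of blood-cell genes were counted, or when keratin and blood-cell sums had to differ 10-fold, the split was 1 higher to 3 lower. By day 10, 6 of 32 measured members were higher than on day 4 and 0 lower, beside 7.37% of all genes past 2-fold, 4.64% higher and 2.73% lower. These 6 were Car9, Aldoc, Ndrg1, Bnip3, Slc2a1 and Pfkfb3, and the median ratio of the members was 0.36, against -0.12 over all genes. With a 10-fold margin between keratin and blood-cell sums the ratio of Pfkfb3 was 0.75. Of its day 10 counts 29.7% came from 1 well, and host wells of day 10 in which neutrophil markers led had 144 CPM of it; their part in its ratio was not tested. On day 16, 13 of 34 were higher than on day 4 and 0 lower, where 19.4% of all genes passed 2-fold, 10.2% higher and 9.28% lower. The median ratio was 0.67 over the members and -0.02 over all genes. Without the deepest day 16 well the split was 15 to 1, and the lower gene was then Car12, with 12.7 CPM on day 16 and 33.1 CPM on day 4. Of the 13, 9 belonged to the 14 hypoxia response genes, whose median ratio was 1.21. Day 10 and day 16 were both set against the same day 4 wells.

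Fat pad tumours differed from 4T1 culture in both directions. Of 32 measured members, 13 were at least 2-fold higher in the fat pad and 2 lower, beside 24.0% of all genes past 2-fold, 10.7% higher and 13.3% lower. The 2 lower genes were Ldha and Pgam1, with ratios of -1.17 and -1.16. With TMM or DESeq2 scaling their ratios were -0.99 and -0.98, and the split became 14 to 0. The hypoxia response genes had 9 of 14 higher and 0 lower, with a median ratio of 1.14, while the 10 core enzymes had a median of -0.86. Over all genes the median was -0.14. The culture wells behind this comparison are the ones used for day 4.

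**Figure D2:**
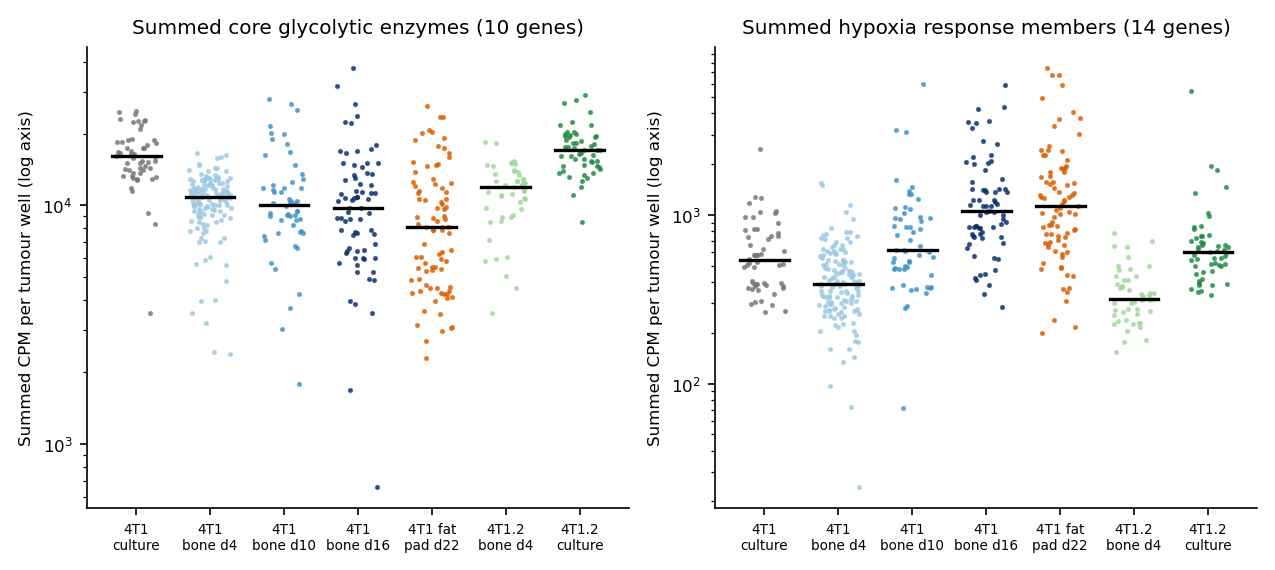
Summed CPM per tumour well (log axis) of the 10 core glycolytic enzymes (left) and the 14 hypoxia response genes (right) in 7 groups. Points are wells and bars are medians. Core enzyme medians run from 8078 CPM in the fat pad to 17046 CPM in 4T1.2 culture, and hypoxia medians from 318 CPM in 4T1.2 bone to 1135 CPM in the fat pad.

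Their summed CPM per well had a lowest value, median and highest value of 2371, 10861 and 16605 CPM on day 4, against 3538, 16050 and 24813 CPM in 4T1 culture. On day 16 they were 656, 9748 and 37722 CPM. In the fat pad they were 2295, 8078 and 26072 CPM. The groups overlapped throughout, but the median of each bone or fat pad group lay below that of culture. The spread of wells was wider on day 16 and in the fat pad than on day 4, with the highest day 16 well above all culture wells.

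Ldha, which turns pyruvate into lactate, had 1784 CPM on day 4 (wells from 275 to 3615, median 1737), against 2985 CPM in culture (329 to 5600, median 2819). The ratio was -0.74. Ldha was 1729 CPM on day 10, 1994 CPM on day 16 (41.7 to 6200, median 1751) and 1322 CPM in the fat pad (29.8 to 3943, median 1140). No bone group came back to the culture level. Gapdh, which oxidises glyceraldehyde 3-phosphate, had 1242 CPM on day 4, 1111 CPM on day 16 and 1159 CPM in the fat pad, against 2054 CPM in culture. Pkm, the pyruvate kinase gene of most tissues, had 2762, 3042 and 1840 CPM in the same order, against 3585 CPM in culture. Pkm was the core enzyme with the smallest difference on day 4, with a ratio of -0.38, and it was -0.96 in the fat pad.

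The core enzymes differed in how near their later levels were to culture. Pfkl, the liver-type phosphofructokinase subunit that commits sugar to glycolysis, had 239 CPM on day 4 (0 to 659, median 218), against 432 CPM in culture (34.1 to 832, median 395). It was 437 CPM on day 16 and 411 CPM in the fat pad, both near the 432 CPM of culture. The ratio was 0.86 for day 16 against day 4 and -0.07 for fat pad against culture. Aldoa, the main aldolase, had 926 CPM on day 4, 1366 CPM on day 16 and 1434 CPM in the fat pad, against 1628 CPM in culture. Gpi1, which isomerises glucose 6-phosphate, had 245, 316 and 329 CPM, against 348 CPM in culture. Pkm, with the values given above, was on day 16 as near to culture as Aldoa. Pgk1, the first ATP-forming step, had 388, 274 and 359 CPM, against 672 CPM in culture. Pgam1, the phosphoglycerate mutase, had 377, 340 and 302 CPM, against 679 CPM, and Tpi1, the triosephosphate isomerase, had 676, 587 and 734 CPM, against 1027 CPM. Eno1, the widely expressed enolase, had 2040, 1941 and 1637 CPM, against 3141 CPM. Eno1b, a near-identical copy, held 18.1% as many counts as Eno1 over all tumour wells, so reads of this pair may be split and the level of Eno1 is uncertain.

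Slc2a1, the glucose transporter GLUT1, was at its lowest in early bone. It had 182 CPM in 4T1 culture (1.84 to 649, median 177), 109 CPM on day 4 (0.374 to 636, median 84.7), 263 CPM on day 10 (4.47 to 1085, median 224) and 279 CPM on day 16 (3.13 to 1044, median 246). In the fat pad it had 345 CPM (3.97 to 2194, median 175). The ratio of day 16 to day 4 was 1.32 and that of fat pad to culture 0.90. The fat pad median was close to that of culture although the summed level was higher. Hk2, the hexokinase of growing and hypoxic cells, had 63 CPM on day 4 (0 to 500, median 50.4), 122 CPM on day 16 (5.9 to 572, median 88) and 76.9 CPM in the fat pad (0.76 to 607, median 52.8), against 25.6 CPM in culture (0 to 75.5, median 20.1). The level exceeded culture in all bone and fat pad groups of 4T1, with ratios of 1.15 on day 4 and 1.42 in the fat pad. Hk1, the hexokinase of most tissues, stayed within 2-fold in all 12 comparisons, with 82.1 to 120 CPM over the 4T1 groups.

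Aldoc, Pfkfb3 and Eno2 reached 10 CPM in only part of the wells. Aldoc, an aldolase best known from brain, reached 10 CPM in 22.2% of culture wells, 11.7% of day 4 wells, 46.3% of day 10 wells, 59.2% of day 16 wells and 56.5% of fat pad wells. Its level was 80 CPM on day 16 (0 to 717, median 23.6), 4.72 CPM on day 4 (0 to 262, median 0) and 81.4 CPM in the fat pad (0 to 817, median 45), and 4.82 CPM in culture (0 to 28.1, median 0). The ratio was 3.13 for day 16 against day 4 and 3.14 for the fat pad against culture. Pfkfb3, whose product makes the activator of phosphofructokinase, had 55.5 CPM on day 16, 7.48 CPM on day 4 and 33.5 CPM in the fat pad, and 13.5 CPM in culture. In culture 1 well held 33.4% of its counts, and the level without that well was 9.21 CPM. It reached 10 CPM in 38% of day 16 wells and 19% of day 4 wells. Eno2, the neuronal enolase, had 18 CPM on day 16, 4.05 CPM on day 4 and 11.7 CPM in the fat pad, and 3.05 CPM in culture. It reached 10 CPM in 26.8% of day 16 wells and 10.2% of day 4 wells. Pfkm and Pfkp, the muscle-type and platelet-type phosphofructokinases, stayed within 2-fold across the 4T1 groups.

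Levels per kilobase of exon show which member of each enzyme family led in tumour wells. On day 16 Slc2a1 had 79.5 CPM per kilobase and Slc2a3, the GLUT3 transporter, 1.1. Hk2 had 20.4 CPM per kilobase and Hk1 14.1 on day 16, against 4.28 and 13.5 in culture, so the order of these hexokinases was the reverse of that in culture. Pfkl had 65.5 CPM per kilobase on day 16, above Pfkm at 8.43 and Pfkp at 6.32. Aldoa had 368 and Aldoc 24.5 CPM per kilobase on day 16. Exon lengths are the merged exons of GENCODE M21, which may differ from those used in counting.

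Car9, the cell-surface carbonic anhydrase that acidifies the outside of hypoxic cells, had the largest ratio of all members between bone stages. It had 11.2 CPM in culture (95% counting interval 10.7 to 11.8; wells from 0 to 138, median 0) and 15.9 CPM on day 4 (15.5 to 16.2; wells from 0 to 122, median 0.284). On day 10 it had 95 CPM (93.5 to 96.5; wells from 0 to 1173, median 23) and on day 16 424 CPM (421 to 426; wells from 0.844 to 2371, median 185). The ratio was 4.36 for day 16 against day 4 and 2.26 for day 10 against day 4. At 10 CPM or more, it was found in 9 of 54 culture wells, 49 of 137 day 4 wells, 30 of 54 day 10 wells and 66 of 71 day 16 wells, so the share of wells as well as the level was greater at each later stage. The exact 95% binomial interval of that share was 84.3% to 97.7% on day 16 and 27.8% to 44.4% on day 4. These intervals cover the counting of wells within 1 sample only, and they are no test between the stages. The deepest well of day 16 had 847 CPM, and without this well, which held 29.4% of the Car9 counts, the day 16 level was 351 CPM. In the fat pad Car9 had 144 CPM (0.343 to 1054, median 55.8), and 52 of 85 wells reached 10 CPM. Car9 lies at chr4:43506966-43513729 on the plus strand, and an antisense gene overlaps 9.29% of its exon bases, from which reads of a library without strand cannot be told apart. Car12, the carbonic anhydrase XII gene, did not share this course: it had 35.4 CPM in culture, 33.1 CPM on day 4, 21 CPM on day 16 and 63.5 CPM in the fat pad. On day 16, 1 well held 48.6% of its counts, and the level without it was 12.7 CPM.

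**Figure D3:**
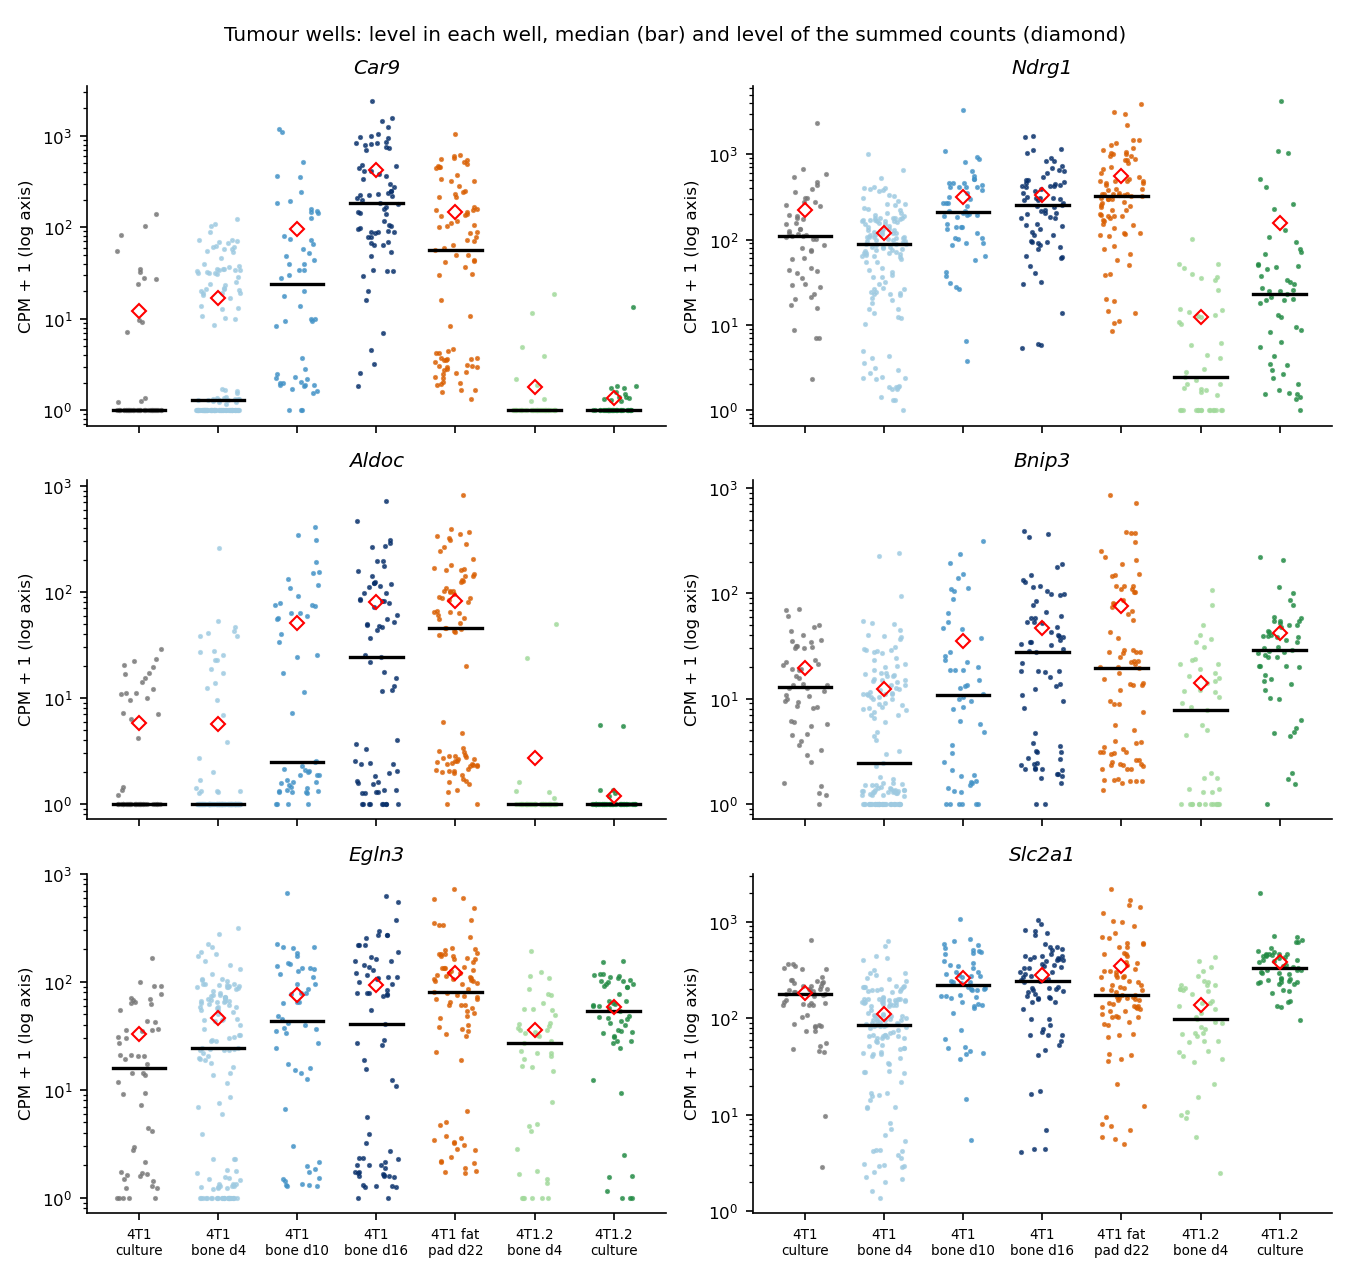
CPM plus 1 (log axis) of 6 members in every tumour well of 7 groups. Points are wells, bars the medians, and red diamonds the levels of the summed counts. Car9 medians are 0 CPM in 4T1 culture, 0.284 CPM on day 4, 23 CPM on day 10, 185 CPM on day 16 and 55.8 CPM in the fat pad, and Car9 was close to 0 in both 4T1.2 groups.

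Ndrg1, a stress-response gene induced by low oxygen, had the highest level of the hypoxia response genes per kilobase of exon in the fat pad, at 84.6 CPM per kilobase. It had 220 CPM in culture (1.33 to 2321, median 109), 118 CPM on day 4 (0 to 994, median 86.5), 313 CPM on day 10 (2.8 to 3284, median 210), 332 CPM on day 16 (4.39 to 1650, median 253) and 558 CPM in the fat pad (7.51 to 3895, median 326). The ratio was 1.45 for day 16 against day 4 and 1.32 for the fat pad against culture. In culture 1 well held 27.9% of the Ndrg1 counts, and the level without it was 163 CPM. Bnip3, which acts in mitophagy and cell death, had 18.7 CPM in culture, 11.3 CPM on day 4 (0 to 241, median 1.44), 34 CPM on day 10, 46.1 CPM on day 16 (0 to 385, median 26.5) and 74.3 CPM in the fat pad (0.362 to 849, median 18.7). Its ratio was 1.64 for day 16 against day 4 and 1.74 for fat pad against culture. Genes on the opposite strand overlap 22.3% of the exon bases of Bnip3, 22.5% of those of Higd1a and, as Lrp2bp, 22.7% of those of Ankrd37. How many reads came from them was not measured, so the levels of these members are uncertain. Ddit4, an inhibitor of mTORC1, stood at 14.9 CPM in culture, 13.3 CPM on day 4 and 16.9 CPM on day 10, and at 69.9 CPM on day 16 (0 to 339, median 33). It thus differed between day 16 and day 10, with a ratio of 1.78, while day 10 and day 4 were within 2-fold. On day 10, 1 well held 36.1% of its counts, and the level without it was 11.1 CPM. In the fat pad it had 36.7 CPM.

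Adm, which encodes the vasodilator adrenomedullin, and Ankrd37, an ankyrin-repeat gene, were foremost in the fat pad. Adm had 51.4 CPM there (0 to 705, median 1.09), against 2.36 CPM in culture (0 to 43.4, median 0), with a ratio of 2.94. On day 16 it had 16.4 CPM, of which 37.8% came from 1 well, and 10.4 CPM without that well. Ankrd37 had 26.6 CPM in the fat pad, against 5.67 CPM in culture, and 8.72 CPM on day 16. Few wells carried these genes: Adm reached 10 CPM in 36.5% of fat pad wells and 9.26% of culture wells. Kdm3a, a histone H3 lysine demethylase, had 63.6 CPM on day 16, 22.4 CPM on day 4 and 52.7 CPM in the fat pad, and 21.8 CPM in culture. Higd1a, a mitochondrial protein gene, went the other way and had 47.8 CPM on day 4, 63.7 CPM on day 16 and 54.2 CPM in the fat pad, against 98.7 CPM in culture, all within 2-fold.

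Among the oxygen sensors, Egln3, a HIF target that feeds back on HIF, had 31.6 CPM in culture (0 to 164, median 14.9), 45.7 CPM on day 4 (0 to 315, median 23.6), 92.3 CPM on day 16 (0 to 628, median 40) and 119 CPM in the fat pad (0.695 to 720, median 79). The ratio was 1.76 for the fat pad against culture and 0.94 for day 16 against day 4. Egln1, the main HIF prolyl hydroxylase, had 15.6 CPM in culture, 15.9 CPM on day 4, 11.1 CPM on day 10 and 29.4 CPM on day 16. The collagen prolyl hydroxylase subunits were both higher on day 16 than on day 4. P4ha1 had 184 CPM on day 16 (1.43 to 785, median 142) and 83.6 CPM on day 4 (0 to 299, median 74.5), with a ratio of 1.09. P4ha2 had 54.3 CPM on day 16 and 11.1 CPM on day 4, with a ratio of 1.89. Against the 34.4 CPM of P4ha2 in culture, day 4 had a ratio of -1.29.

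Pdk1, the kinase that blocks entry of pyruvate into the mitochondrial cycle, had the lowest ratio of day 4 to culture among the members, at -1.71. It had 8.55 CPM on day 4 (0 to 124, median 0.332), against 39.4 CPM in culture (0.505 to 99.1, median 35.2), and reached 10 CPM in 24.8% of day 4 wells and 87% of culture wells. It had 23.2 CPM on day 16 (0 to 311, median 0.838) and 55.5 CPM in the fat pad (0 to 374, median 21.8). Hk2 and Pdk1 thus went opposite ways between day 4 and culture.

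Day 16 bone and fat pad tumours differed in both directions. Of 34 measured, 3 were at least 2-fold higher on day 16 and 4 lower, beside 11.7% of all genes past 2-fold, 7.48% higher and 4.23% lower. The higher genes were Car9 (424 CPM on day 16 and 144 CPM in the fat pad), Slc16a3 and Slc2a3. The lower ones were Adm, Car12, Ankrd37 and Pdk1. With wells weighted equally the split was 3 to 2, and with a 10-fold margin between keratin and blood-cell sums it was 1 to 4, since Slc16a3 and Slc2a3 then had ratios of 0.82 and 0.21. Between day 16 and day 10, 7 of 34 were higher on day 16 and 0 lower, beside 12.7% of all genes past 2-fold, 7.14% higher and 5.52% lower. They were Car9, Ddit4, Eno2, Pfkfb3, Egln1, Adm and P4ha2. The ratio of Egln1 was 0.67 with wells weighted equally and 0.85 without the deepest day 16 well. That of Adm was 0.91 with wells weighted equally. In tumour wells below 100 CPM of blood-cell genes Adm had 0.97 and P4ha2 0.93. On day 16, 1 well held 33.4% of the Eno2 counts and 1 well 30.2% of the Egln1 counts. With wells weighted equally the split was 5 to 1, and without the deepest well of day 16 it was 6 to 1.

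In 4T1.2, a bone-seeking derivative of 4T1, the day 4 wells of bone had 2 of 30 measured members at least 2-fold higher than culture and 7 lower, beside 9.32% of all genes past 2-fold, 6.17% higher and 3.15% lower. The median ratio of the members was -0.60, against -0.03 over all genes. The 7 lower were Ndrg1, Eno2, Slc2a1, Bnip3, P4ha1, Pfkl and Pfkm. Ndrg1 had 11.5 CPM in 4T1.2 bone (0 to 99.3, median 1.43), against 156 CPM in 4T1.2 culture (0 to 4159, median 21.8), a ratio of -3.29. In that culture 1 well held 40.9% of the Ndrg1 counts, and the level without it was 93.9 CPM. Slc2a1 had 137 CPM in 4T1.2 bone (1.51 to 436, median 98), against 383 CPM in 4T1.2 culture (96.1 to 1990, median 331). The 2 higher genes were Slc16a3 and Slc2a3. When only tumour wells below 100 CPM of blood-cell genes were summed, the split was 0 to 8, and with the 10-fold margin it was 0 to 6.

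Few members, among them Ndrg1, Car9 and Pdk1, set the lines apart in bone. On day 4 in bone, 3 of 30 measured members were higher in 4T1.2 than in 4T1 and 2 lower, beside 9.26% of all genes past 2-fold, 4.19% higher and 5.07% lower. The lower ones were Ndrg1, with 11.5 CPM in 4T1.2 and 118 CPM in 4T1, and Car9, with 0.807 CPM in 4T1.2 and 15.9 CPM in 4T1. The higher ones were Pdk1 (34 CPM in 4T1.2 and 8.55 CPM in 4T1), Slc2a3 and P4ha2. P4ha2 had a ratio of 1.01, which was 0.90 with TMM and 0.99 with DESeq2 factors and 0.38 in tumour wells below 100 CPM of blood-cell genes. With the 10-fold margin the split was 1 to 2, and the ratios of P4ha2 and Slc2a3 were 0.92 and -0.01. In culture, 3 of 30 were higher in 4T1.2 and 1 lower, beside 8.60% of all genes past 2-fold, 3.62% higher and 4.98% lower. Car9 was again the lower one, with 0.363 CPM in 4T1.2 and 11.2 CPM in 4T1. In 4T1.2 culture 1 of 53 wells reached 10 CPM of Car9, against 9 of 54 in 4T1 culture. Eno2, Pfkm and Slc2a1 were the higher ones, and Slc2a1 had 383 CPM in 4T1.2 culture and 182 CPM in 4T1 culture.

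Tumour and host wells of the same samples used different members of the pathway. On day 4, 11 of 30 measured members were at least 2-fold higher in tumour wells and 5 lower, beside 36.5% of all genes past 2-fold, 17.0% higher and 19.6% lower. On day 16 they were 9 and 5 of 34, beside 41.8% of all genes (23.9% higher and 17.9% lower), and in 4T1.2 bone 12 and 4 of 29, beside 36.6% of all genes (16.1% higher and 20.5% lower). On day 16 the share of members higher in tumour wells was close to that of all genes, whose median ratio was 0.22 there. Higher in tumour wells in all 3 were Pfkl, Car12, Egln3, P4ha1 and P4ha2. The day 16 ratio of P4ha1 was 1.05, but 0.84 with TMM and 0.75 with DESeq2 factors. The 4T1.2 ratio of P4ha2 was 1.57, but 0.74 in tumour wells below 100 CPM of blood-cell genes. Egln3 had 45.7 CPM in tumour wells (0 to 315, median 23.6), against 2.81 CPM in host wells of day 4 (0 to 254, median 0). Car9 had 424 CPM in tumour wells and 9.85 CPM in host wells of day 16. Of host wells of day 16, 7.56% reached 10 CPM of Car9, against 93% of tumour wells, although after thinning to 500000 counts 70.3% of those host wells and 97.1% of tumour wells had a read. The median of Car9 in host wells was 2.94 CPM on day 16, so values of a few CPM in wells are not read here as expression.

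Slc16a3, the lactate exporter MCT4, belonged to the host wells. It had 18.2 CPM in tumour wells (0 to 857, median 3.69), against 413 CPM in host wells of day 4 (0 to 12448, median 9.81). On day 16 the values were 18.6 CPM in tumour wells and 691 CPM in host wells. Cultured 4T1 had 0.444 CPM and fat pad tumour wells 0.913 CPM. In the 14 tumour wells of day 4 with at least 100 CPM of blood-cell genes it was 132 CPM (0.423 to 857, median 9.76). In the 123 with less it was 3.86 CPM (0 to 18.4, median 3.44). The ratio of day 4 to culture was then 0.70, instead of 2.09 over all tumour wells. The part of blood-cell RNA in the higher Slc16a3 and Slc2a3 of bone tumour wells was not tested. Slc2a3 had 3.41 CPM in tumour wells and 133 CPM in host wells of day 4. On day 16 it had 7.99 CPM in tumour wells, of which 52.4% came from 1 well, and 3.85 CPM without that well. It had no count in 85 fat pad tumour wells, which allows a level of up to 0.0124 CPM. Slc16a1, the lactate transporter MCT1, had the opposite arrangement on day 16, with 227 CPM in tumour wells (1.61 to 619, median 266), against 28.3 CPM in host wells (0 to 580, median 2.39).

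**Figure D4:**
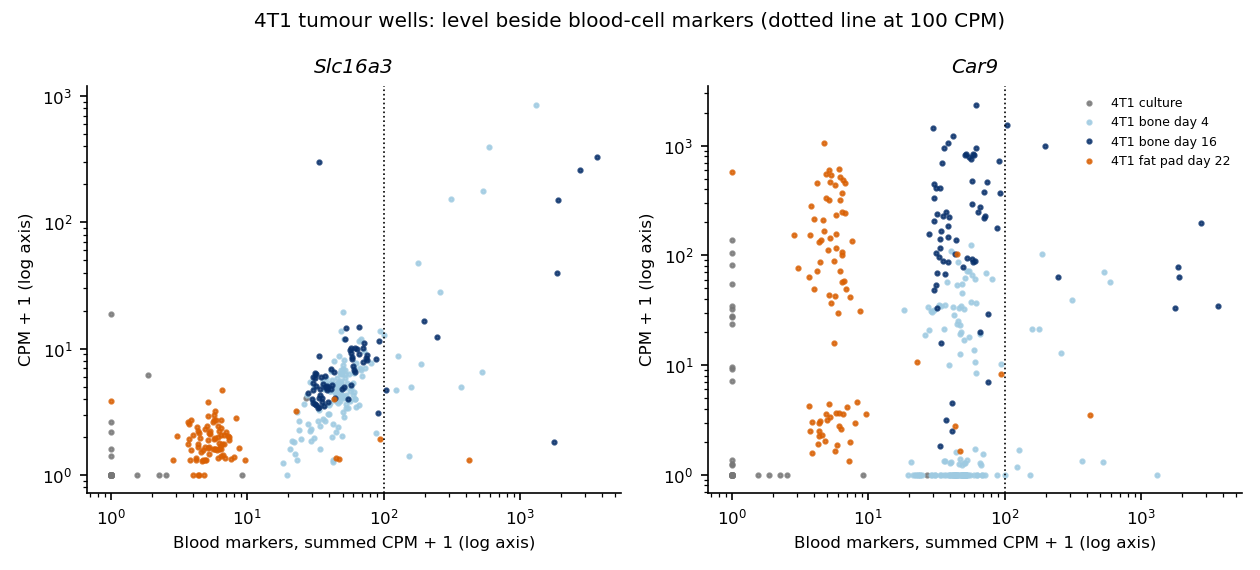
Slc16a3 (left) and Car9 (right) in 4T1 tumour wells, as CPM plus 1, against the summed CPM plus 1 of 4 blood-cell genes (both axes log). Each point is a well of culture, bone day 4, bone day 16 or fat pad, and the dotted line is at 100 CPM. On day 4 the summed level of Slc16a3 is 3.86 CPM left of the line (median 3.44) and 132 CPM right of it (median 9.76). Car9 of day 16 is 423 CPM left of the line (63 wells, median 206) and 433 CPM right of it (8 wells, median 70.2).

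Host wells were described further by the marker list that led in them by at least 4 log2 units of the mean, a limit set after the values were seen. Neutrophil markers led in 212 wells, B lineage markers in 85, macrophage markers in 69, markers of myeloid precursors and monocytes in 14, erythroid markers in 12 and markers of T and NK cells in 3. No list led clearly in 322. Neutrophil-led wells had 1174 CPM of Slc16a3 (0 to 12448, median 471), 329 CPM of Slc2a3 (0 to 2076, median 237), 506 CPM of Hk3 and 1221 CPM of Gpi1. Hk3, the hexokinase of white blood cells, had 4.61 CPM in day 4 tumour wells and no count in 4T1 culture. Per kilobase of exon, the neutrophil-led wells had 221 CPM of Slc16a3 and 5.8 CPM of Slc16a1, and the day 16 tumour wells 3.5 CPM of Slc16a3 and 51.4 CPM of Slc16a1. Pfkl had 36 CPM in neutrophil-led wells. B lineage-led wells had 401 CPM of Slc16a1 and 5.15 CPM of Slc16a3. Of these 85 wells 50 were within 1 log2 unit of the limit, and in them the median reached 50 CPM for 4 of 8 neutrophil markers. Erythroid-led wells were low in nearly the whole pathway, with 69.5 CPM of Ldha, 54.3 CPM of Pkm and 8.44 CPM of Gpi1, but had 614 CPM of Slc16a1 and 185 CPM of Hk1.

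Macrophage-led wells, mostly of day 16, carried RNA of part of the hypoxia response genes. Within day 16, the 46 macrophage-led wells had 236 CPM of Ndrg1, 151 CPM of Bnip3 and 137 CPM of P4ha1, against 25.1, 9.75 and 6.02 CPM in the 36 neutrophil-led wells. Pdk1, Egln1 and Higd1a were also higher in the macrophage-led wells. The summed level of Car9 was 12.9 CPM there and 3.36 CPM in the neutrophil-led wells, but its medians were 2 and 3.24 CPM. The summed levels of Ddit4, Kdm3a and Car12 were lower in the macrophage-led wells, with 10.9, 41.4 and 0.146 CPM, against 17.2, 57.8 and 3.86 CPM. Their medians were not: Ddit4 had 1.11 against 0.906 CPM and Kdm3a 6.81 against 1.83 CPM. The Car12 median was 0 CPM in both sets of wells. Adm, Ankrd37, Egln3 and P4ha2 were below 10 CPM in both. Pooled over groups, the 69 macrophage-led wells had 363 CPM of Slc2a1 (2.19 to 2642, median 165), 247 CPM of Ndrg1 (0 to 2479, median 86.1), 156 CPM of Bnip3 (0 to 771, median 75.4) and 132 CPM of P4ha1. Their Car9 was 13.5 CPM, with a median of 1.77. In the 7 macrophage-led wells of the fat pad Slc2a1 was 1125 CPM (165 to 2642, median 1027), and in the 46 of day 16 it was 298 CPM (3.95 to 1802, median 143). Bnip3 was 421 CPM in those of the fat pad and 151 CPM in those of day 16. All 7 macrophage markers had a median of at least 50 CPM over these wells, as did 3 of 8 neutrophil markers and 0 of 7 stromal markers.

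**Figure D5:**
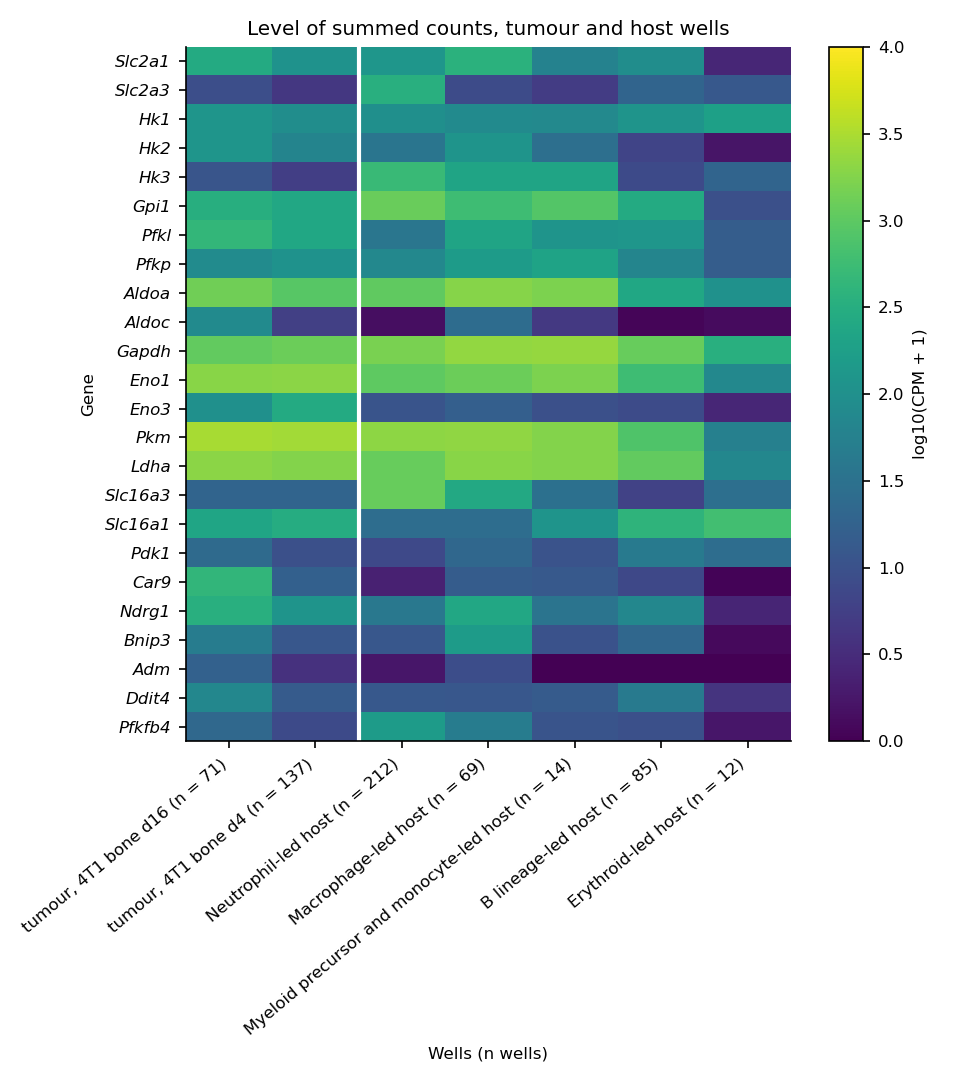
Log10 of CPM plus 1 of summed counts for 24 genes (rows) in tumour wells of day 16 and day 4 and in host wells led by 5 marker lists (columns, with the number of wells). Slc16a3, Slc2a3 and Hk3 are brightest in neutrophil-led wells (1174, 329 and 506 CPM), Slc16a1 in erythroid-led wells (614 CPM), and Car9 in tumour wells of day 16 (424 CPM).

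Other genes of the same pathways were listed by function. Of 35 further hypoxia genes, 29 were measured between day 16 and day 4, and 11 were at least 2-fold higher on day 16 and 0 lower, with a median ratio of 0.54, beside 10.2% and 9.28% of all genes. Hmox1, the haem oxygenase, had 148 CPM on day 16 and 22.6 CPM on day 4. Host wells of day 16 had 930 CPM of it, and the part of host RNA in the tumour level was not tested. Mxi1, a MYC antagonist, had 39.7 CPM on day 16 and 8.76 CPM on day 4, and Bhlhe40, a transcriptional repressor, had 560 CPM on day 16 and 182 CPM on day 4. Against culture the fat pad had 5 higher and 3 lower of 29 measured, beside 10.7% higher and 13.3% lower of all genes. The higher ones included Bhlhe41 with 125 CPM in the fat pad and 12 CPM in culture. Tfrc, the transferrin receptor, which is also regulated by iron, had 29.9 CPM in the fat pad and 307 CPM in culture, the opposite direction. On day 4 in bone, 3 of 29 were higher than in culture and 4 lower, beside 5.18% and 3.60% of all genes, and Tfrc had 68 CPM on day 4.

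The 30 further genes of glycolysis, lactate and the pentose phosphate branch were also counted. Between day 16 and day 4, 20 were measured, 2 were higher on day 16 and 3 lower, beside 10.2% and 9.28% of all genes, and the median ratio was -0.12. Eno3, the enolase best known from muscle, had 102 CPM on day 16 (0 to 600, median 64.4), against 282 CPM on day 4 (0.489 to 697, median 260). Eno3 had 58.7 CPM per kilobase on day 16, above the 3.82 CPM per kilobase of Eno2. Pdk3, a further pyruvate dehydrogenase kinase, had 32.5 CPM on day 16 and 75.4 CPM on day 4. In the fat pad against culture, 2 of 20 were higher and 6 lower, beside 10.7% and 13.3% of all genes, with a median of -0.39. Those furthest from culture were Pdk3, Pgd and Taldo1, and Pgd, of the oxidative pentose phosphate branch, had 114 CPM in the fat pad and 288 CPM in culture.

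Within a group, wells with more of one core enzyme tended to have more of the others, and the hypoxia response genes did this far less. The median Spearman correlation over the 45 pairs of core enzymes was 0.45 across 54 wells of 4T1 culture, 0.32 across 137 wells of day 4, 0.68 across 54 wells of day 10, 0.67 across 71 wells of day 16 and 0.68 across 85 wells of the fat pad. Over pairs of the 11 to 14 hypoxia response genes that reached 10 CPM in at least 20% of wells it lay between 0.02 and 0.20 in the 7 groups. Most hypoxia response genes had far lower levels than the core enzymes, which limits rank correlations. On day 4 the 14 hypoxia response genes summed to 434 CPM and the core enzymes to 10678 CPM. The part of level in this contrast was not tested. The summed levels of both sets had a correlation of 0.26 in 4T1 culture, 0.23 on day 4, 0.36 on day 10, 0.60 on day 16 and 0.64 in the fat pad, and of 0.20 in 4T1.2 bone and 0.47 in 4T1.2 culture. These are descriptions across wells of 1 sample, which share library preparation and differ in depth and in the RNA content of the cell. The number of the 14 hypoxia response genes at 10 CPM or more in a tumour well had a median of 8 on day 16 (2 to 14), 7 on day 4 (1 to 12) and 8 in the fat pad (1 to 14), and of 8 in culture (4 to 12). The number of genes per well therefore differed little between groups whose summed levels differed by more than 2-fold.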

How the data were processed

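Per the labels, single mCherry-sorted cells were made into Smart-seq2 libraries and read as paired 150-base reads, and wells above a Ct of 30 in mCherry qPCR were discarded. The authors deposited 1 table of whole-number read counts per gene symbol and cell. The submitters' processing notes list build mm10 and, with no roles given, STAR 2.6.0c, featureCounts 1.6.2, Seurat 3.1.2, R 3.6.2, Trim Galore 0.6.6, FastQC 0.11.7 and SAMtools 1.7. No source used here states the gene annotation or the strand setting of the counting. ERCC spike-ins (0.67% of counts), the reporters (0.187%) and 4 repeated date-like symbols (0.0149%) stayed out of library sizes. No columns were identical.

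Wells passed with at least 1000 genes, 50000 counts and at most 25% mitochondrial counts. No doublet caller was run; wells with both kinds of marker were left out in an alternative that asks for a 10-fold margin. Counts were summed over wells and scaled by plain totals, with TMM (edgeR 4.0.16) and DESeq2 1.42.0 size factors as alternatives, in R 4.3.3. The other steps used Python 3.11.15, numpy 2.4.6, pandas 2.3.3, scipy 1.17.1 and matplotlib 3.10.9. The ratio step was tested on simulated data. All members may be named; of the further genes, the 3 with the largest ratio per list and comparison at 20 CPM or more in 1 group, plus others chosen after their values were seen. Members and lists were chosen with earlier results of these data known. Start-site windows and their sequences are from RefSeq, and gene positions and exon lengths from GENCODE M21.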

Additional observations from a re-analysis of the deposited data

How the results depend on the processing

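Over the 12 comparisons, 116 member ratios passed 2-fold, and 55 of them passed it in the same direction in every alternative run. A pseudocount of 20 CPM in place of 5 CPM, which damps low genes by construction, lowered the number of members past 2-fold to 1 (from 4) on day 4 against culture, 5 (from 9) in 4T1.2 bone against culture, 8 (from 13) on day 16 against day 4, 2 (from 7) on day 16 against day 10, 2 (from 7) on day 16 against the fat pad, 0 (from 4) for 4T1.2 against 4T1 in culture, 1 (from 5) for 4T1.2 against 4T1 on day 4, 10 (from 16) for tumour against host wells of day 4 and 9 (from 16) for those of 4T1.2. A 10-fold margin between keratin and blood-cell sums lowered the count for 4T1.2 against 4T1 on day 4 to 3 (from 5). There the ratio of Slc2a3 changed sign to -0.01 with that margin, and to -0.01 in tumour wells below 100 CPM of blood-cell genes; the cause was not tested. In the other comparisons and settings the counts stayed within 1.5 times. Rescaling moved the median log2 ratio of all genes by over 0.1 in several comparisons. For fat pad against culture it was 0.02 with TMM or DESeq2 factors (-0.14 with plain totals), for day 10 against day 4 it was 0.00 with DESeq2 factors (-0.12), for day 4 against culture 0.05 with TMM (-0.06) and for 4T1.2 against 4T1 on day 4 -0.08 with TMM (0.03). For tumour against host wells of day 16 it was 0.02 with TMM and -0.07 with DESeq2 factors (0.22), where 8 members were higher and 6 lower with either. The ratio of Car9 for day 16 against day 4 lay between 4.09 and 4.65 over the alternatives other than the pseudocount of 20 CPM. The limit of 100 CPM and the removal of the deepest well were chosen after seeing the data. No paired analysis was possible because the labels number only cells and name no animal or plate. Each group is 1 sample, so the spread between animals or cultures was not measured; depth limits the lowest genes.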
